A study of Mus musculus with 23 samples.

Results

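The genes examined here are 10 that mark cytotoxic lymphocytes and the lymphocytes lying between the epithelial cells of the gut: *Cd8a*, *Cd8b1*, *Gzma*, *Gzmb*, *Prf1*, *Nkg7*, *Cd160*, *Klrd1*, *Itgae* and *Cd7*. They were picked by gene symbol, and each was found once among the 55449 genes of the deposited table. The tissue is colon of male C57BL/6 mice of genotype Cdx2Apcf/w, in which Cre recombinase driven by the *Cdx2* promoter deletes a floxed *Apc* allele, so that *Apc* loss is placed in cells using that promoter and not in the lymphocytes described below. All mice were 6 to 8 weeks old at the start, ate a diet with 60% fat and received *B. fragilis* 638R. The strain carried an empty vector in the BF BSHlow groups and a *bsh* gene taken from another *B. fragilis* strain, which encodes a bile salt hydrolase, in the BF BSHhigh groups, and each strain is 1 construct. Every mouse drank antibiotics before colonization. There were 4 libraries of BF BSHlow and 4 of BF BSHhigh normal colon after 2 weeks, 4 and 4 of non-tumor colon after 12 weeks, and 4 BF BSHlow and 3 BF BSHhigh tumors after 12 weeks. The labels do not say which libraries came from the same mouse or whether tissue of several mice was pooled, so p-values measure the spread between these libraries. No group lacked the high-fat diet, the bacterium or the *Apc* deletion. The 3 columns of BF BSHhigh tumors have no header names of their own and are known as a group only, and their libraries are called a, b and c.

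Killing by lymphocytes runs through granules. Perforin opens the membrane of the target cell and granzymes, which are serine proteases, enter and start its death. The gut epithelium houses a standing population of such cells, many of which carry CD8 as a pair of alpha chains, without the beta chain of conventional cytotoxic T cells, and many of which use a gamma-delta T cell receptor. They are held in place by the integrin alpha-E beta-7 binding E-cadherin, and depend on interleukin-15 made by the epithelium. The marker genes are not exclusive: regulatory T cells and some dendritic cells also carry alpha-E, some mouse dendritic cells carry CD8 alpha, mast cells and natural killer cells can make granzyme B, and innate lymphoid cells share several receptors of the list.

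In the annotation with which the identifiers of the table match (GENCODE M21, GRCm38), *Cd8b1* (chr6:71322788-71337494) and *Cd8a* (chr6:71373427-71379173) lie next to each other on the plus strand, and *Klrd1* (chr6:129591782-129598775) is farther along the same chromosome. *Gzma* is at chr13:113093825-113100981 and *Gzmb* at chr14:56258838-56262260, both on the minus strand. *Prf1* (chr10:61297833-61304680), *Nkg7* (chr7:43437073-43438249) and *Itgae* (chr11:73090583-73147446) are on the plus strand, and *Cd160* (chr3:96798763-96829351) and *Cd7* (chr11:121036747-121039418) on the minus strand. All 10 are protein coding. Exons of *Cd160* overlap exons of *Pdzk1* on the other strand and exons of *Cd7* overlap those of the antisense gene *Gm11775*. *Itgae* contains *Haspin* on the other strand with no exon in common. The library kit marks strand, but whether the counting used it is not given in the sources used here, so *Cd160* and *Cd7* are the less certain counts. Each value of the 10 genes in the table is a whole number.

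RefSeq promoters (GRCm38.p6) were at hand for 6 of the 10 genes, namely *Cd8a*, *Gzma*, *Gzmb*, *Prf1*, *Nkg7* and *Cd160*. The 250 bases before the start are printed for both granzymes, *Gzma* (chr13:113100982-113101231, minus strand) and *Gzmb* (chr14:56262335-56262584, minus strand), and for a receptor and a coreceptor, *Cd160* (chr3:96829352-96829601, minus strand) and *Cd8a* (chr6:71373177-71373426, plus strand). They are shown because, as described below, *Gzmb* was called higher and *Cd160* lower in tumors of both strains, *Gzma* was called higher with BF BSHhigh and *Cd8a* lower with BF BSHlow. Capitals mark the letters TGTGGT, or ACCACA on the other strand, the core bound by Runx factors, and GGTGTG, or CACACC, a core bound by T-box factors, families that include Runx3 and T-bet of cytotoxic lymphocytes.
*Gzma*: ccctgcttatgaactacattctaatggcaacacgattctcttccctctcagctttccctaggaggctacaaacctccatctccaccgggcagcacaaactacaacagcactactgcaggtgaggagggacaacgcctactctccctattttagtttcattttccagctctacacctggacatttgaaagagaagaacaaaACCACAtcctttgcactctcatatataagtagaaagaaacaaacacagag
*Gzmb*: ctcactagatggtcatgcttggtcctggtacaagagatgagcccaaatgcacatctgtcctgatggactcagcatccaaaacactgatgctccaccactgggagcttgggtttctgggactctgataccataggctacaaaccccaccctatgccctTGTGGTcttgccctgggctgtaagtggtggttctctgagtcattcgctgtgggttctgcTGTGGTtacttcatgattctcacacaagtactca
*Cd160*: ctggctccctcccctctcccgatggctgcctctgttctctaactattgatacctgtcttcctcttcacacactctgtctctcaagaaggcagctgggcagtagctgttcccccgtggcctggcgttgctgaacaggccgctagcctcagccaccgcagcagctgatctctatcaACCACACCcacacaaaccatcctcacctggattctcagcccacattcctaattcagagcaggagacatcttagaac
*Cd8a*: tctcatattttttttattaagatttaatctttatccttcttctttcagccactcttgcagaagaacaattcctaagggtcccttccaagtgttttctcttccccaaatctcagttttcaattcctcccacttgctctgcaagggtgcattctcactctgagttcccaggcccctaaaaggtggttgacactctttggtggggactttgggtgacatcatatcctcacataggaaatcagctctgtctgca
*Gzmb* held the Runx core at bases 158 and 217 of its window, *Gzma* at base 201 and *Cd160* at base 175, where it overlapped a T-box core at base 177. *Cd8a* had neither. Of the 6 promoters, 5 held the Runx core and 2 the T-box core, against 14% and 16.3% of 32851 RefSeq windows of this length. A match is a string of letters and shows no binding.

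The libraries held between 12401388 and 17903008 expected counts. Epithelial transcripts were present in every library, with *Epcam*, a surface protein of epithelia, between 825 and 2010 CPM (counts scaled to a common library size with TMM factors over the 23 libraries). The tissues differed in makeup. The summed level of 6 smooth muscle markers was 7.08 to 206 CPM at 2 weeks, 1510 to 8470 CPM in 12-week non-tumor colon and 117 to 343 CPM in tumors. That of 6 markers of mature colonocytes was 11300 to 23400, 1700 to 4360 and 51.4 to 730 CPM, and that of 6 macrophage markers 15.7 to 46.4, 60 to 232 and 140 to 413 CPM. Of 6 epithelial markers only *Cdx2* was called lower in 12-week non-tumor than in 2-week normal colon (log2 fold changes -4.63 and -3.79 for BF BSHlow and BF BSHhigh, edgeR). The median of the 6 was -0.39 and -0.55, and *Epcam* was at -0.28 and -0.34. None of these markers was at 0 throughout any group, and their part in the results below was not tested.

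*Cd8a* encodes the alpha chain of CD8, which every CD8 T cell carries. At 2 weeks it stood at 10.84, 2.92, 3.13 and 9.63 CPM in the BF BSHlow libraries and at 11.9, 10.3, 6.75 and 17.46 CPM with BF BSHhigh. In 12-week non-tumor colon it was 2.3, 1.55, 1.02 and 0.58 CPM with BF BSHlow and 1.69, 0.56, 2.54 and 0.6 CPM with BF BSHhigh. In tumors it was 0.54, 0, 0.14 and 0 CPM with BF BSHlow and 0.78, 0.62 and 0.24 CPM with BF BSHhigh. Every 2-week library was thus above every 12-week library, the strains overlapped at each stage, and 2 of the 4 BF BSHlow tumors had no *Cd8a* count. The tumor values rest on 14 counts over the BF BSHlow tumors and 34 over the BF BSHhigh tumors.

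*Cd8b1* encodes the beta chain, which conventional cytotoxic T cells add to the alpha chain. It averaged 1.12 ± 1.22 CPM (SD, n = 4) and 2.51 ± 1.82 CPM (n = 4) at 2 weeks for BF BSHlow and BF BSHhigh, 0.764 ± 0.614 and 0.669 ± 0.813 CPM (n = 4 and 4) in 12-week non-tumor colon, and 0.171 ± 0.249 (n = 4) and 0.31 ± 0.261 CPM (n = 3) in tumors. All groups next to each other in this order overlapped. In each 12-week non-tumor BF BSHlow library its share beside *Cd8a* was larger than in any 2-week library of that strain: the log2 ratio of *Cd8b1* to *Cd8a* counts, with 0.5 added to each, was -2.02, -3.83, -4.48 and -2.61 at 2 weeks and -0.48, -1.14, -0.87 and -1.44 in non-tumor colon at 12 weeks. With BF BSHhigh these ranges overlapped, at -3, -2.3, -2.31 and -1.74 and at -2.08, -1.93, -0.43 and -0.92.

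*Gzma* encodes granzyme A, a trypsin-like protease of the granules. It read 12.89, 4.83, 2.46 and 8.72 CPM with BF BSHlow and 17.89, 18.91, 6.9 and 35.73 CPM with BF BSHhigh at 2 weeks. In non-tumor colon at 12 weeks it read 0.59, 0.29, 0.41 and 0.58 CPM with BF BSHlow and 0.94, 1.24, 0.67 and 0.37 CPM with BF BSHhigh. The tumors read 2.8, 0.21, 0.38 and 2.64 CPM with BF BSHlow and 3.05, 1.74 and 3.86 CPM with BF BSHhigh. Replicates 2 and 3 of the BF BSHlow tumors were at the level of non-tumor colon, and all other tumors were above every 12-week non-tumor library.

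*Gzmb* encodes granzyme B, the granzyme that cleaves and activates caspases. At 2 weeks it was 4.78, 1.33, 0.66 and 7.31 CPM with BF BSHlow and 7.36, 7.65, 3.34 and 12.34 CPM with BF BSHhigh. In 12-week non-tumor colon it was 0.15, 0.17, 0.2 and 0.26 CPM with BF BSHlow and 1, 0.56, 0.55 and 1.05 CPM with BF BSHhigh. The tumors were at 1.67, 0.21, 0.57 and 1.42 CPM with BF BSHlow and 3, 6.7 and 3.1 CPM with BF BSHhigh. At 12 weeks the strains did not overlap in either tissue, every BF BSHhigh library being the higher, whereas at 2 weeks they did. The group means ran from BF BSHhigh at 2 weeks (7.67 ± 3.68 CPM, n = 4) through BF BSHhigh tumors (4.26 ± 2.11 CPM, n = 3) and BF BSHlow at 2 weeks (3.52 ± 3.1 CPM, n = 4) down to BF BSHlow non-tumor colon (0.196 ± 0.0476 CPM, n = 4). In that last group the 4 libraries held 12 counts in all.

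*Prf1*, which encodes perforin, was close to the limit of detection, with 0 to 14 counts per library. Its group means lay between 0.0857 ± 0.0833 CPM in BF BSHlow tumors (SD, n = 4) and 0.741 ± 0.316 CPM at 2 weeks with BF BSHhigh (n = 4), and neighbouring groups in the order of means overlapped. *Nkg7*, whose product is a membrane protein of the granules needed for their release, was better covered, except in the BF BSHlow tumors, which held 9 counts in all. It was 3.71, 3, 1.52 and 4.71 CPM with BF BSHlow and 5.63, 6.11, 3.19 and 6.09 CPM with BF BSHhigh at 2 weeks. Tumors had 0.25, 0, 0.1 and 0.1 CPM with BF BSHlow and 1.4, 0.62 and 0.33 CPM with BF BSHhigh. Each BF BSHhigh tumor was above each BF BSHlow tumor, and the non-tumor libraries at 12 weeks, at 0.39 to 1.65 CPM, overlapped the BF BSHhigh tumors but not the BF BSHlow ones.

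*Cd160* encodes a receptor that binds HVEM, the product of *Tnfrsf14*, and is carried by intraepithelial and natural killer cells. It was the gene with the most clearly stepped levels. It was 3.49, 3.17, 2.75 and 2.04 CPM with BF BSHlow and 4.09, 6.11, 2.89 and 8.25 CPM with BF BSHhigh at 2 weeks. In 12-week non-tumor colon it was 1.04, 1.03, 1.09 and 1.16 CPM with BF BSHlow and 0.94, 0.31, 1.15 and 0.97 CPM with BF BSHhigh. In tumors it was 0.1, 0, 0.05 and 0 CPM with BF BSHlow and 0.26, 0.13 and 0.24 CPM with BF BSHhigh. The 2-week, 12-week non-tumor and tumor libraries occupied separate ranges, the strains separated in tumors and overlapped in the other tissues, and the 4 BF BSHlow tumors held 3 counts in all, against 13 in the 3 BF BSHhigh tumors.

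*Klrd1* encodes CD94, the partner of the NKG2 receptors that read the class I molecule Qa-1. Its tumor levels were 0.69, 0.1, 0.24 and 0 CPM with BF BSHlow and 1.34, 0.49 and 0.67 CPM with BF BSHhigh. It was 1.78, 1.77, 1.5 and 0.39 CPM with BF BSHlow and 0.81, 0.56, 1.09 and 1.57 CPM with BF BSHhigh in 12-week non-tumor colon, and 1.05 to 4.97 CPM at 2 weeks. Neighbouring groups in the order of means overlapped, and replicate 4 of BF BSHlow non-tumor colon lay well under the other libraries of its group. *Cd7*, a surface glycoprotein of T, natural killer and innate lymphoid cells, was 3.93, 2.12, 3.61 and 2.84 CPM with BF BSHlow and 4.81, 1.31, 3.21 and 1.87 CPM with BF BSHhigh in non-tumor colon. In tumors it was 0.83, 0.26, 0.14 and 0.1 CPM with BF BSHlow and 1.5, 1.43 and 0.43 CPM with BF BSHhigh. All 2-week libraries (5.21 to 16.02 CPM) were above all 12-week libraries, and the tumors of the strains overlapped because library c was below replicate 1 of the BF BSHlow tumors.

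*Itgae*, the alpha-E integrin chain, had the flattest profile of the 10 genes. It was 6.67, 5.38, 4.97 and 2.97 CPM with BF BSHlow and 5.5, 3.05, 6.24 and 4.34 CPM with BF BSHhigh in non-tumor colon at 12 weeks. Tumor levels were 7.06, 1.59, 2.34 and 3.37 CPM with BF BSHlow and 7.19, 6.7 and 6.2 CPM with BF BSHhigh. Neighbouring groups in the order of means overlapped throughout, and replicate 1 of the BF BSHlow tumors stood with the BF BSHhigh tumors. Its part of the summed CPM of the 10 genes changed more: 10.9 to 19.8% in the 2-week libraries, 31.5 to 38.1% in 12-week non-tumor colon, 43.9 to 66% in BF BSHlow tumors and 34.9 to 40.4% in BF BSHhigh tumors.

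**Figure D1:**
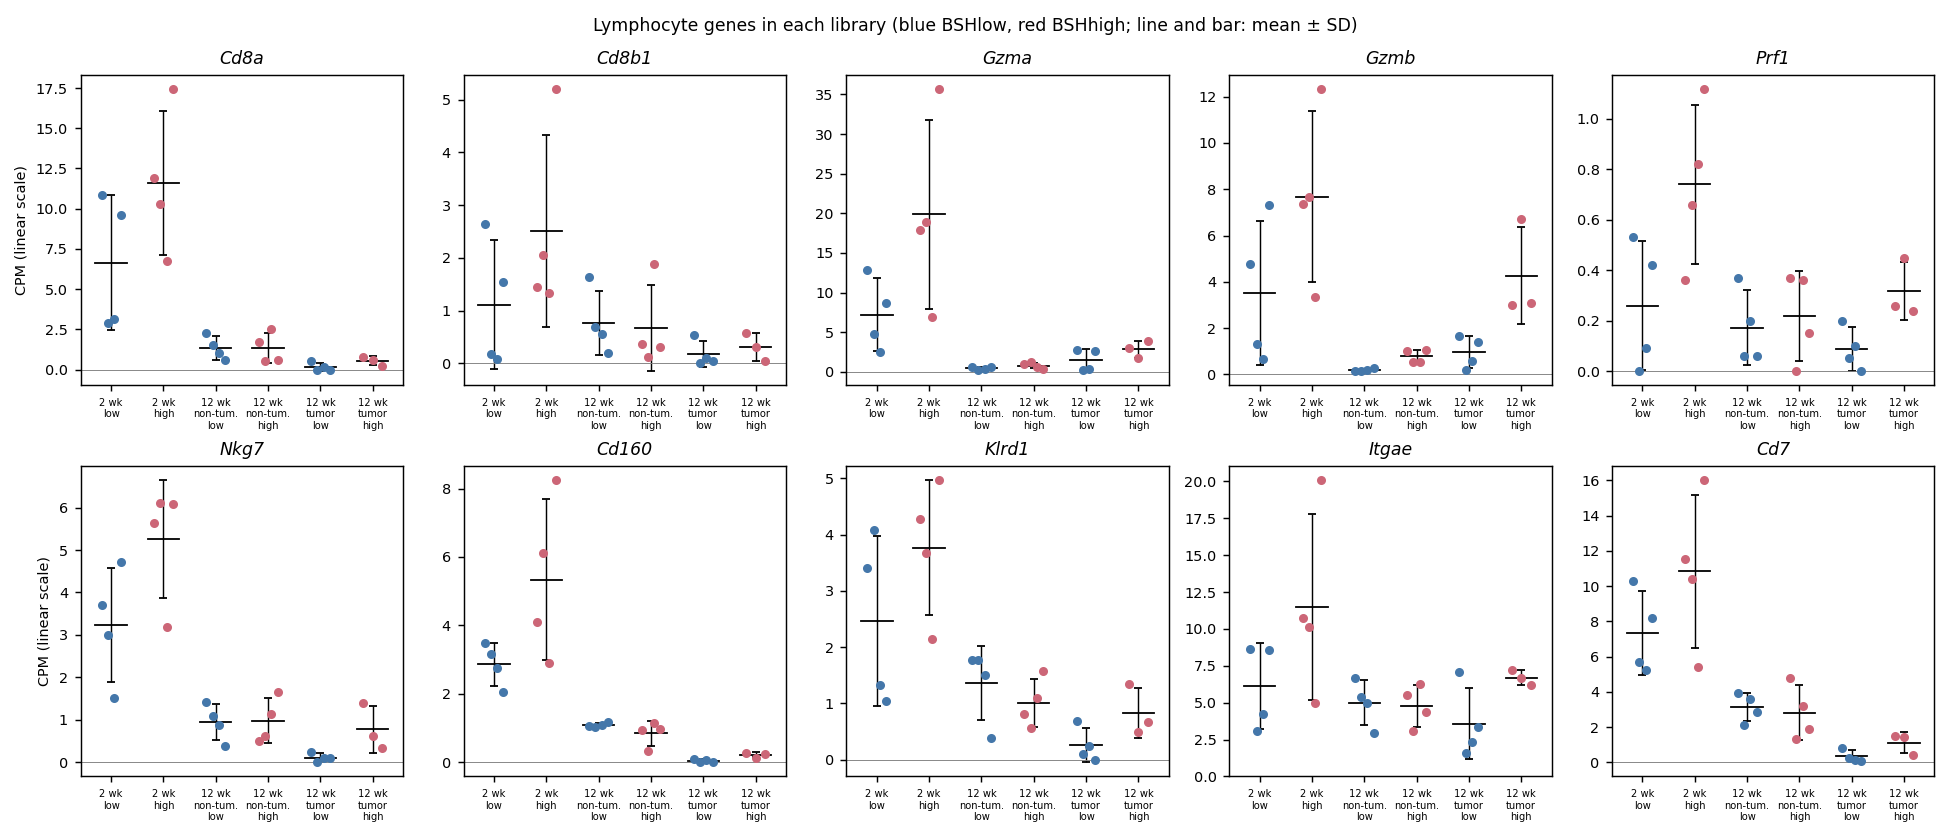
Level of each of the 10 genes (CPM, linear axis) in the 23 libraries by group, blue for BF BSHlow and red for BF BSHhigh. Points are libraries, horizontal lines group means and bars ± SD. All genes have their highest mean at 2 weeks with BF BSHhigh, and *Gzma* and *Gzmb* have their lowest means in 12-week non-tumor colon, whereas the other 8 have theirs in BF BSHlow tumors.

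The first question was what separates tumors from the non-tumor colon of the same stage. In BF BSHlow mice the genes split. *Gzmb* rose with a log2 fold change of 2.25 (SE 0.61, adjusted p = 0.00489), whereas *Cd160* fell by 4.65 (SE 0.64, adjusted p = 2.09e-05), *Cd7* fell by 3.21 (SE 0.63, adjusted p = 0.000463), *Nkg7* fell by 3.02 (SE 0.72, adjusted p = 0.00201), *Cd8a* fell by 2.94 (SE 0.89, adjusted p = 0.00985) and *Klrd1* fell by 2.37 on the log2 scale (SE 0.75, adjusted p = 0.0125). These values come from the quasi-likelihood test of edgeR over all genes of the 15 libraries of 12 weeks, with Benjamini-Hochberg adjustment, and a gene is called past an adjusted p-value of 0.05 and a 2-fold change. Of the 10 genes 9 passed the filter on low counts and 6 were called, 1 higher and 5 lower, where 16.7% of all genes tested were called higher and 19.5% lower. With no filter the median log2 fold change of all 10 was -2.24, against 0 over all genes of that fit. Counted directly, *Cd160* stood at 3.42% of its non-tumor level (95% counting interval 0.687 to 10.4%, which covers counting error only). *Gzma* (1.68, SE 0.71, adjusted p = 0.0509), *Cd8b1* (-2.1, SE 1.04, adjusted p = 0.0908) and *Itgae* (-0.48, SE 0.4, adjusted p = 0.305) were not called, nor was *Prf1* in the fit with no filter (-0.92, adjusted p = 0.467). In bulk tissue, fewer cells of a type and less RNA per cell cannot be told apart.

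Single libraries moved some of these results. Without replicate 1 of the BF BSHlow tumors, the highest of its group for all 10 genes, *Itgae* was called lower (-1.06, adjusted p = 0.0129) and so was *Cd8b1* (-3.79, adjusted p = 0.0157). The 5 genes called lower had larger falls without it, at -5.56 for *Cd160*, -4.63 for *Cd8a*, -4.21 for *Cd7*, -3.73 for *Nkg7* and -3.51 for *Klrd1*. Limma-voom also moved *Cd8a* (-3.83) and *Klrd1* (-2.97). Without replicate 2 or 3 of that group, *Gzma* was called higher (2.02, adjusted p = 0.00993, and 1.98, adjusted p = 0.0203). The call of *Gzmb* was not made with limma-voom (1.75, adjusted p = 0.0629), which called *Cd8b1* lower (-2.56, adjusted p = 0.0457). In a fit of these 2 groups alone 5 of the 10 genes passed the filter, *Gzmb* and *Nkg7* not among them, and *Cd7*, *Klrd1*, *Cd160* and *Cd8a* were called lower.

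In BF BSHhigh mice both granzymes were called higher in tumors. *Gzmb* rose by 2.43 (SE 0.55, adjusted p = 0.0018) and *Gzma* by 1.81 on the log2 scale (SE 0.71, adjusted p = 0.0415), and *Cd160* fell by 1.98 (SE 0.57, adjusted p = 0.00895) by the same edgeR test. Thus 2 genes were called higher and 1 lower of the 9 that passed the filter, where 14.6% of all genes were called higher and 14.8% lower, and the median of all 10 with no filter was -0.29 against 0 over all genes of that fit. *Cd7* (-1.33, SE 0.62, adjusted p = 0.0847), *Cd8a* (-1.31, SE 0.87, adjusted p = 0.215), *Cd8b1* (-1.13, SE 1.07, adjusted p = 0.387), *Nkg7* (-0.32, SE 0.65, adjusted p = 0.691), *Klrd1* (-0.28, SE 0.75, adjusted p = 0.77) and *Itgae* (0.48, SE 0.42, adjusted p = 0.351) were not called. The call of *Gzma* was lost without replicate 1, 3 or 4 of the non-tumor libraries or tumor a or c (log2 fold changes 1.55 to 1.88, adjusted p = 0.0668 to 0.127). *Cd7* was called lower by DESeq2 (-1.39, adjusted p = 0.0458) and in 1 fit of all 23 libraries (-1.32, adjusted p = 0.0478).

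Scaling by library totals alone shifted the median of all genes between tumor and non-tumor colon from 0.04 to 0.37 for BF BSHlow and to 0.35 for BF BSHhigh, and turned 2751 higher and 3205 lower calls over all genes into 3999 and 2510, and 2398 and 2433 into 3534 and 1807. Every call on the 10 genes kept its direction under it, *Gzma* was called higher in BF BSHlow tumors (2.05, adjusted p = 0.021), and the uncalled value of *Klrd1* in BF BSHhigh mice turned from -0.28 to 0.01. Several cell type markers moved with these results. Markers of mature colonocytes summed to 1700 to 4360 CPM in BF BSHlow non-tumor colon and 51.4 to 134 CPM in tumors, and to 2020 to 2690 and 145 to 730 CPM with BF BSHhigh. Those of B and plasma cells summed to 154 to 1690 and 0.635 to 6.86 CPM with BF BSHlow, and to 574 to 1660 and 90.1 to 121 CPM with BF BSHhigh. Markers of mast cells, which can make granzyme B, summed to 3.1 to 21.8 and 15.1 to 66 CPM with BF BSHlow and to 7.18 to 47 and 21 to 46.3 CPM with BF BSHhigh. The part of these markers in the result was not tested.

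**Figure D2:**
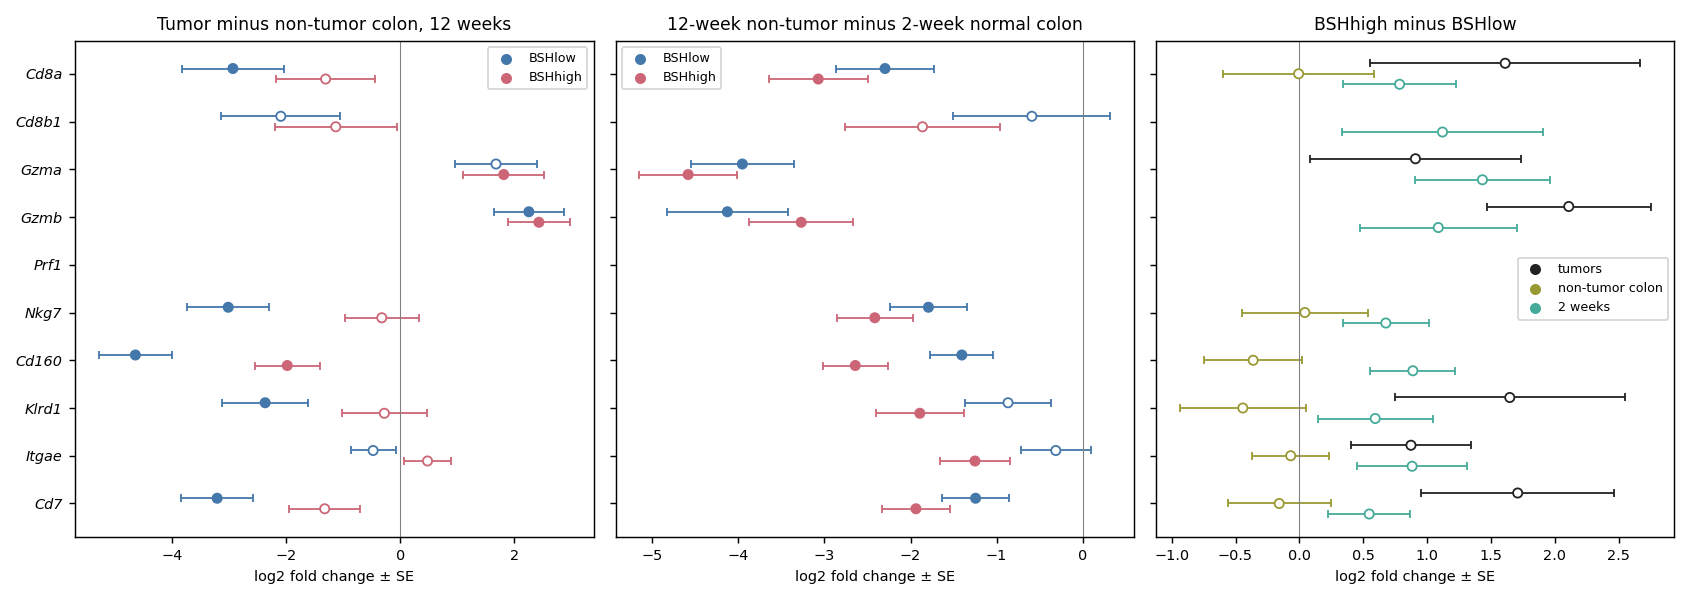
Log2 fold change ± SE of each gene from edgeR in 7 comparisons, for genes that passed the filter on low counts (*Prf1* passed in none). Filled points were called and open points were not. *Gzma* and *Gzmb* lie right of 0 in tumors against non-tumor colon while *Cd160* lies left in both strains, every tested gene lies left of 0 from 2 to 12 weeks, and no point is filled between BF BSHhigh and BF BSHlow.

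Ratios within a library need no scaling between libraries and set a gene beside the T cell transcripts *Cd3d*, *Cd3e* and *Cd3g*, which encode parts of the T cell receptor complex. Relative to them, *Cd8a* was lower in tumors than in non-tumor colon in both strains. Its log2 ratio was -2.05, -2.18, -2.43 and -2.6 in BF BSHlow non-tumor colon and -3.37, -5.29, -4.25 and -6.19 in the tumors. It was -2.02, -2.49, -2.19 and -2.95 in BF BSHhigh non-tumor colon and -4.73, -4.36 and -5.82 in the tumors. No tumor overlapped the non-tumor libraries of its strain. Replicates 2 and 4 of the BF BSHlow tumors have no *Cd8a* count, so their ratios are set by the added 0.5 and their size is not measured. The differences of the means were -2.46 and -2.56 (exact permutation test, two-sided, p = 0.0286 each, the smallest p this design allows, and 0.176 after Benjamini-Hochberg adjustment over 40 ratio comparisons).

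*Gzmb* relative to the *Cd3* genes was higher in BF BSHlow tumors, at -1.78, -2.12, -2.41 and -0.31, than in non-tumor colon, at -5.71, -5.15, -4.58 and -3.68 (log2 ratios). The difference was 3.12 without overlap (exact permutation test, p = 0.0286, adjusted p = 0.176). In BF BSHhigh mice the ratio was -2.82, -0.98 and -2.25 in tumors and -2.76, -2.49, -4.35 and -2.17 in non-tumor colon, which overlapped (difference 0.93, exact permutation p = 0.4). *Cd8a* relative to *Cd4*, the coreceptor of helper and regulatory T cells, which macrophages of some tissues also express, differed by -2.72 in BF BSHlow tumors on the log2 scale, without overlap (exact permutation test, p = 0.0286, adjusted p = 0.176) and differed by -1.5 in BF BSHhigh tumors (exact permutation p = 0.0857, adjusted p = 0.214). *Cd8b1* relative to the *Cd3* genes differed by -1.2 (exact permutation p = 0.0571) and -2.31 (exact permutation p = 0.0286) in tumors of the strains, each with adjusted p = 0.176. Of the 40 ratio comparisons 6 had the smallest p the design allows, and none passed the adjusted threshold, which 6 at that p-value cannot reach.

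**Figure D3:**
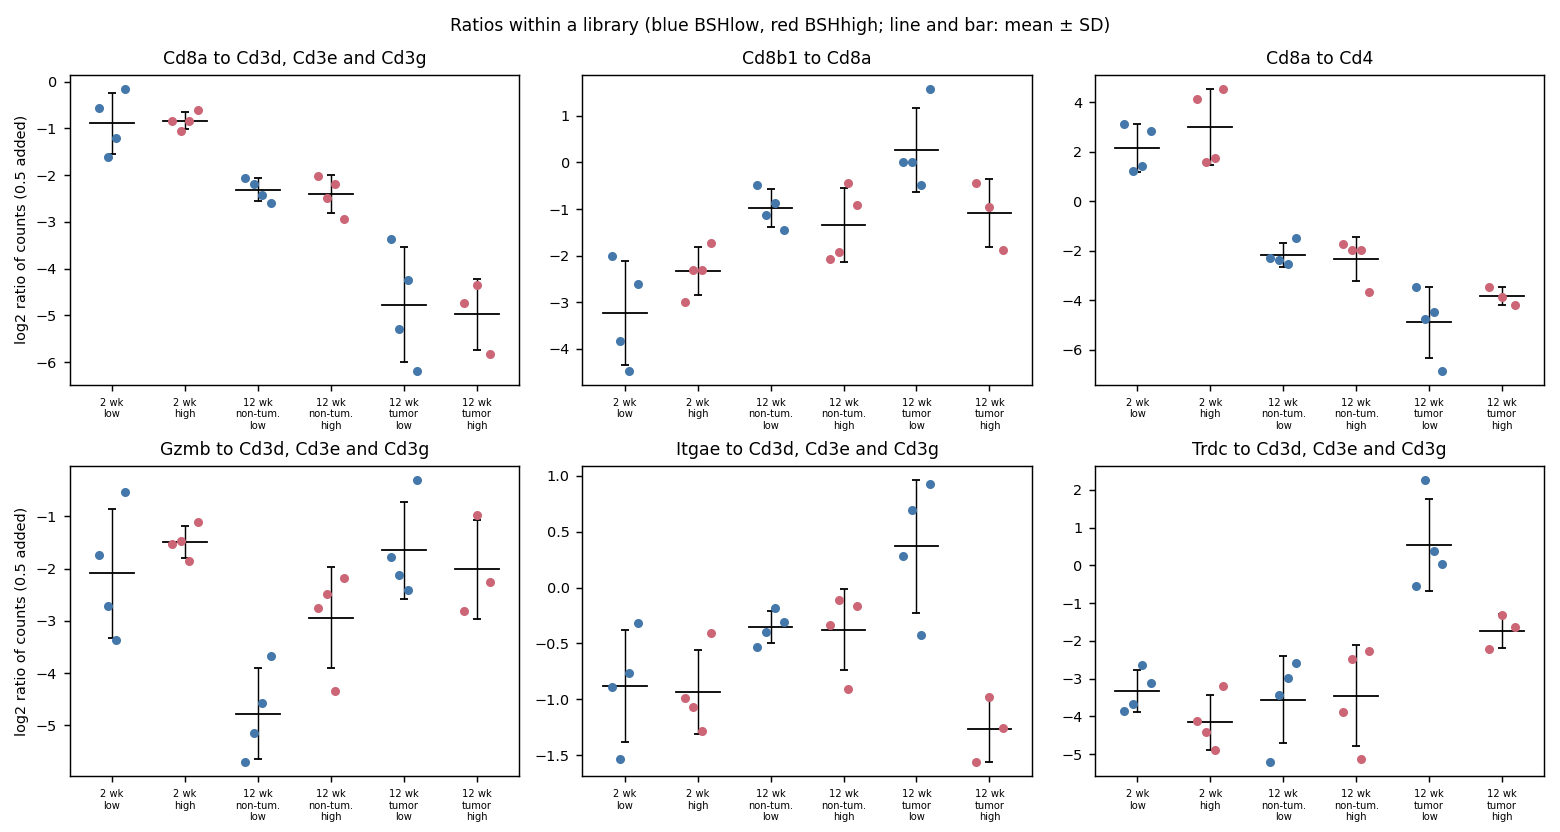
Log2 ratios of counts (0.5 added to each) within each library by group, blue for BF BSHlow and red for BF BSHhigh, with group means (lines) and ± SD (bars). *Cd8a* relative to the *Cd3* genes is lowest in tumors of both strains, while *Trdc* relative to the *Cd3* genes is highest in BF BSHlow tumors.

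A gene of the gamma-delta T cell receptor rose in tumors of both strains. *Trdc*, the constant gene of the delta chain, rose in tumors by 2.75 (SE 0.41, adjusted p = 4.02e-05) in BF BSHlow and by 3.09 on the log2 scale (SE 0.42, adjusted p = 3.46e-05, edgeR) in BF BSHhigh mice, from means of 0.528 ± 0.208 and 0.568 ± 0.289 CPM (SD, n = 4 and 4) to 3.66 ± 1.29 (n = 4) and 4.84 ± 0.376 CPM (n = 3). Of the 4 gamma and delta constant genes, all tested, 1 was called higher in BF BSHlow tumors and 3 in BF BSHhigh tumors, among them *Tcrg-C1* (2.38) and *Tcrg-C2* (1.56), and none lower. Their median was -0.72 in BF BSHlow and 1.97 in BF BSHhigh tumors, so with BF BSHlow the rise was that of *Trdc* and not of the list. The log2 ratio of *Trdc* to the *Cd3* genes was -0.54, 2.26, 0.38 and 0.04 in BF BSHlow tumors. In replicates 2, 3 and 4 its counts thus exceeded theirs, and whether it follows T cells there was not tested. The gamma constant genes are close copies, so their reads can be split between them. Beside 16.7% higher and 19.5% lower of all genes in BF BSHlow and 14.6% and 14.8% in BF BSHhigh tumors, which hold for each list below, 1 of 13 pan T cell genes was higher and 3 lower in BF BSHlow tumors, with a median of -1.02, and 3 were higher and none lower in BF BSHhigh tumors, with a median of 0.91. *Zap70*, a kinase of receptor signaling, rose in both (2.89 and 3.08 on the log2 scale), from 0.684 to 1.7 CPM in the non-tumor libraries to 3.18 to 18 CPM in tumors, while *Cd28* (-3) and *Cd2* (-2.21) fell in BF BSHlow tumors.

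The receptors' partners and ligands were followed as a list of 9 genes. In BF BSHlow tumors 5 of the 8 tested were lower and none higher, with a median of -1.51 against 0.04 over all genes. These were *Il15ra* (-2.34), which presents interleukin-15, *Tnfrsf14* (-2.1), the ligand of CD160, *H2-T23* (-1.78), which encodes Qa-1, *Itgb7* (-1.66), the partner of alpha-E, and *Il15* (-1.36, SE 0.34, adjusted p = 0.00252, edgeR). In BF BSHhigh tumors 3 were lower, *Il15ra* (-1.14), *Tnfrsf14* (-1.07) and *H2-T23* (-1.07), and *Il2rb*, a receptor chain for interleukin-15, was higher (1.19). The 4 butyrophilin-like genes of the gut epithelium, which support its gamma-delta T cells, summed to 101 to 174 CPM in BF BSHlow non-tumor colon and 0.0488 to 0.981 CPM in the tumors, and to 129 to 196 and 5.77 to 37.3 CPM with BF BSHhigh. All 4 were called lower in tumors of each strain.

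Among genes that store or release granules, 2 of 10 were higher and 3 lower in BF BSHlow tumors, and 2 higher and 1 lower in BF BSHhigh tumors, with medians of -0.13 and 0.04, shares near those of all genes. *Stx11*, a syntaxin of granule fusion, rose (2.45 and 1.9) and *Rab27a*, which docks granules and also serves epithelial secretion, fell by 3.56 and fell by 2.37 on the log2 scale. *Cst7* (-1.79) fell in BF BSHlow tumors. Of 5 secreted and surface effectors tested, 3 were called higher and 1 lower in BF BSHlow tumors and 2 higher in BF BSHhigh tumors, with medians of 2.34 and 2.17. *Tnf* rose in both (2.34 and 2.22). In BF BSHlow tumors *Ccl3* (6.15) and *Ccl4* (5.12), chemokines that myeloid cells also make, were called higher, and *Ccl5*, a chemokine of cytotoxic cells, lower (-1.97). Of 12 natural killer receptors and adaptors 8 were tested, of which 2 rose and 5 fell in BF BSHlow tumors and 2 rose in BF BSHhigh tumors. *Klrb1c* (-3.49), *Klrb1b* (-1.78) and *Klrk1* (-1.68) were among those that fell, whereas *Cd244a*, which myeloid and mast cells also carry, rose (3.78 and 2.9). Of the transcription factors, *Prdm1* (2.19 and 1.73) and *Id2* (2.12 and 1.67), which epithelial cells also express, rose and *Ikzf3* fell (-3.25 and -1.9). Of homing genes, *Cxcl16* rose in both (1.45 and 1.56), *Cxcr3* (-3.6), *Ccr9* (-2.08) and *Itga4* (-1.37) fell with BF BSHlow, and *Cxcr6* (2.04) rose with BF BSHhigh. None of 8 other granzyme genes passed the filter in the fits of 12-week libraries. The 8 non-tumor libraries used here also serve the comparison with 2 weeks.

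The comparison of the strains asks whether more bile salt hydrolase alters these genes. In tumors none of the 10 was called by edgeR, where 0.476% of all genes were called in either direction. All 6 that passed the filter were higher with BF BSHhigh: *Gzmb* by 2.11 (SE 0.64, adjusted p = 0.212), *Cd7* by 1.71 (SE 0.76, adjusted p = 0.406), *Klrd1* by 1.65 (SE 0.9, adjusted p = 0.508), *Cd8a* by 1.61 (SE 1.06, adjusted p = 0.58), *Gzma* by 0.91 (SE 0.82, adjusted p = 0.702) and *Itgae* by 0.87 on the log2 scale (SE 0.47, adjusted p = 0.504), edgeR values on 7 libraries. The filter was applied to these same libraries. *Klrd1*, for one, had 26, 11 and 14 counts in BF BSHhigh and 14, 2, 5 and 0 in BF BSHlow tumors. The shared direction of the 6 can thus be set in part by the filter. With no filter on low counts, all 10 were tested, all 10 values were above 0 (0.81 to 2.75, median 1.69 against -0.01 over all genes of that fit) and none was called. At an unadjusted p-value under 0.05 there was 1 of 6, *Gzmb*, and with no filter 4 of 10, *Nkg7* (2.75), *Gzmb* (2.12), *Cd160* and *Cd7*. At that p-value and over 2-fold, 723 of all 15325 genes were higher and 118 lower, and with no filter 1158 and 214 of 25240. DESeq2 called *Gzmb* (2.12, adjusted p = 0.0389), as did the likelihood-ratio test of edgeR (2.11, adjusted p = 0.0383), and the fit of all 23 libraries called *Nkg7* in its place. These 2 tests called more of all 15325 genes, 489 higher and 45 lower by DESeq2 and 504 and 39 by the likelihood-ratio test. The quasi-likelihood test called 71 and 2. Omitting any 1 library gave *Gzmb* values from 1.64 to 2.52. *Cd160*, with 3 counts in BF BSHlow tumors, had a ratio of 5.62 (95% counting interval 1.54 to 30.7).

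Of 13 pan T cell genes none was called between the strains in tumors by edgeR, and their median was 2.18. *Cd3d*, *Cd3e* and *Cd3g* together summed to 0.974 to 5.79 CPM in BF BSHlow tumors and 13.3 to 21.3 CPM in BF BSHhigh tumors, with log2 fold changes of 2.55 (adjusted p = 0.135), 2.33 (adjusted p = 0.216) and 2.5 (adjusted p = 0.0536) from edgeR. *Foxp3*, the factor of regulatory T cells, was at 2.18 (adjusted p = 0.19) and *Itgb7* at 2.08 (adjusted p = 0.197), and none of these was called. *Zap70* averaged 9.47 ± 7.16 and 9.43 ± 2.55 CPM (SD, n = 4 and 3) in BF BSHlow and BF BSHhigh tumors, and *Trdc* was at 0.4 (adjusted p = 0.667, edgeR). Set against the *Cd3* genes, no ratio passed the adjusted threshold. With 0.0286 as the smallest exact permutation p-value and 40 ratio comparisons, 1 ratio alone could not have passed it, so this decides nothing. The log2 ratio of *Gzmb* to them was -1.78, -2.12, -2.41 and -0.31 in BF BSHlow and -2.82, -0.98 and -2.25 in BF BSHhigh tumors, a difference of -0.36 (exact permutation p = 0.6, adjusted p = 0.75). That of *Cd8a* differed by -0.2 (exact permutation p = 0.771). Those of *Itgae* (difference -1.64) and *Trdc* (difference -2.27) did not overlap and were lower in BF BSHhigh tumors (exact permutation p = 0.0571, adjusted p = 0.176, for each). The ratio of *Cd8b1* to *Cd8a* was 0, 0, -0.48 and 1.58 in BF BSHlow tumors, where 2 libraries have no *Cd8a* count, and -0.43, -0.95 and -1.87 in BF BSHhigh tumors (difference -1.36, exact permutation p = 0.0857, adjusted p = 0.214).

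Other lists moved with the strain in tumors, in both directions. Markers of mature colonocytes summed to 51.4 to 134 and 145 to 730 CPM, of B and plasma cells to 0.635 to 6.86 and 90.1 to 121 CPM, of regulatory T cells to 7.13 to 12 and 22.4 to 34 CPM, and of macrophages to 140 to 387 and 280 to 413 CPM, in BF BSHlow and BF BSHhigh tumors. The first 3 of these lists did not overlap between the strains. The 8 transcription factors of cytotoxic and resident lymphocytes were lower with BF BSHhigh without overlap, summing to 175 to 195 and 127 to 141 CPM. Of the 5 tested none was called, with a median of -0.47. Markers of innate lymphoid cells summed to 264 to 457 and 165 to 301 CPM, and of mast cells to 15.1 to 66 and 21 to 46.3 CPM, with overlap. Of the companion lists, *Tnfsf10*, encoding the death ligand TRAIL, was called higher with BF BSHhigh (1, SE 0.14, adjusted p = 0.0365, edgeR), as was the butyrophilin-like gene *Btnl6* (adjusted p = 0.0481, edgeR). The sum of the 10 genes was 2.41 to 14.7 and 15.3 to 19.3 CPM. The part of these cells in the values of *Gzmb* and the other genes was not tested.

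**Figure D4:**
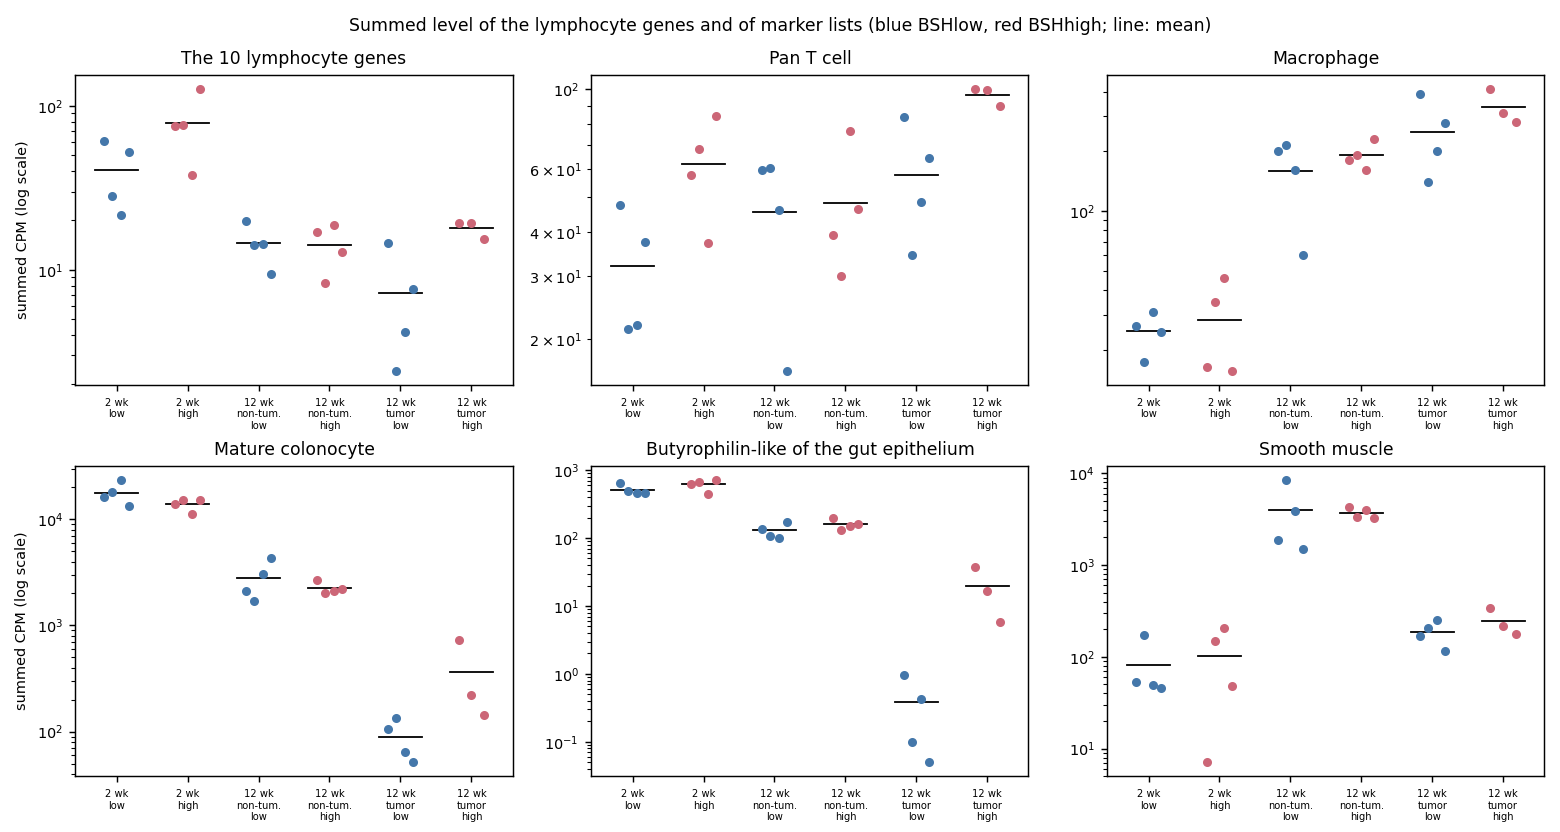
Summed CPM (log axis) of the 10 genes and of 5 marker lists in each library, blue for BF BSHlow and red for BF BSHhigh, with the group mean as a line. The 10 genes and the mature colonocyte and butyrophilin-like genes are highest at 2 weeks, smooth muscle in 12-week non-tumor colon and macrophage markers at 12 weeks.

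In non-tumor colon at 12 weeks the 6 genes that passed the filter had log2 fold changes from -0.44 (*Klrd1*) to 0.04 (*Nkg7*) between the strains, with SE of 0.3 to 0.59 and adjusted p = 0.817 to 0.999 by edgeR. None of them was called or had an unadjusted p-value under 0.05, the share of all genes called was 0%, and DESeq2 called none of them either. *Gzmb* did not pass the filter in this fit. With no filter its value was 1.96 (SE 0.49, adjusted p = 0.368), the only one of the 10 with an unadjusted p-value under 0.05, from 12 counts over the BF BSHlow and 48 over the BF BSHhigh libraries. At that p-value and over 2-fold, 339 of all 24738 genes of that fit were higher and 229 lower. The log2 ratio of *Gzmb* to the *Cd3* genes differed by 1.83 (exact permutation p = 0.0571, adjusted p = 0.176).

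At 2 weeks the 9 genes that passed the filter were all higher with BF BSHhigh, by 0.55 (*Cd7*) to 1.43 (*Gzma*, SE 0.53, adjusted p = 0.711) on the log2 scale, and with no filter all 10 were above 0, with a median of 0.89 against -0.01 over all genes of that fit. None was called by edgeR, where 0.00727% of all genes were called, 2 had an unadjusted p-value under 0.05 (*Gzma* and *Cd160*), and DESeq2 called none. At that p-value and over 2-fold, which *Cd160* (0.89) did not reach, 141 of all 13752 genes were higher and 36 lower. The *Cd3* genes lay in the same range (0.82 to 1.18). Replicate 3 of the BF BSHhigh group and replicates 2 and 3 of the BF BSHlow group were the low libraries for most of the 10 genes, and the groups overlapped for each of them. Ratios to the *Cd3* genes differed by -0.83 to 0.95 with no exact permutation p under 0.114.

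Whether the strain acted differently in tumors and in non-tumor colon was tested as an interaction in the 15 libraries. All 9 tested values were above 0, from 0.13 (*Gzma*, SE 1.06) to 2.69 (*Nkg7*, SE 0.96, adjusted p = 0.316). Their median was 1.63, against 0.03 over all genes. *Cd160* was at 2.66 (SE 0.87, adjusted p = 0.251) and *Cd7* at 1.89 (SE 0.86, adjusted p = 0.505), and these 3 had an unadjusted p-value under 0.05. At that p-value and over 2-fold, 804 of all 16454 genes were higher and 97 lower. None of the 9 was called by edgeR or DESeq2, and 0.978% of all genes were. The value of *Gzma* changed sign in 5 of the fits that leave out 1 library (-0.21 to 0.62 over all of them). For *Gzmb*, which was higher with BF BSHhigh in every library of both tissues, the interaction was 0.18 (SE 1.01, adjusted p = 0.991, edgeR).

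From 2-week normal colon to 12-week non-tumor colon most of the tested genes were called lower. With BF BSHlow 6 of the 9 tested were called lower by edgeR: *Gzmb* fell by 4.13 (SE 0.7, adjusted p = 0.00021), *Gzma* fell by 3.95 (SE 0.6, adjusted p = 7.66e-05), *Cd8a* fell by 2.3 (SE 0.57, adjusted p = 0.00363), *Nkg7* fell by 1.79 (SE 0.44, adjusted p = 0.0037), *Cd160* fell by 1.4 (SE 0.37, adjusted p = 0.00529) and *Cd7* fell by 1.24 on the log2 scale (SE 0.39, adjusted p = 0.0155). None was called higher, where 17% of all genes were called higher and 8.06% lower. The call of *Cd7* was lost without replicate 1 of the 2-week libraries (-1.04, adjusted p = 0.0539), and *Gzmb* was at -3.49 without replicate 4. In a fit of these 2 groups alone *Gzmb* did not pass the filter. *Klrd1* (-0.87, adjusted p = 0.164), *Cd8b1* (-0.59, adjusted p = 0.617, and 0.24 without 2-week replicate 1) and *Itgae* (-0.31, adjusted p = 0.552) were not called.

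With BF BSHhigh 8 of 9 were called lower, where 16.8% of all genes were called higher and 7.56% lower. *Gzma* fell by 4.58 (SE 0.57, adjusted p = 1.45e-05), *Gzmb* fell by 3.27 (SE 0.6, adjusted p = 0.000422), *Cd8a* fell by 3.07 (SE 0.57, adjusted p = 0.000458), *Cd160* fell by 2.64 (SE 0.38, adjusted p = 4.85e-05), *Nkg7* fell by 2.42 (SE 0.44, adjusted p = 0.000408), *Cd7* fell by 1.94 (SE 0.39, adjusted p = 0.000904), *Klrd1* fell by 1.89 (SE 0.51, adjusted p = 0.00618) and *Itgae* fell by 1.25 on the log2 scale (SE 0.41, adjusted p = 0.0189, edgeR). *Cd8b1* (-1.86, SE 0.9, adjusted p = 0.0973) was not called, and was called with limma-voom (-2.26, adjusted p = 0.0421) and without replicate 3 of the non-tumor libraries (-3.2, adjusted p = 0.017). The call of *Itgae* was lost without replicate 4 of the 2-week (-0.84, adjusted p = 0.0964) or replicate 2 of the non-tumor libraries (-1.09, adjusted p = 0.0568) and with library totals alone (-0.96, adjusted p = 0.0644).

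With no filter the medians of all 10 genes were -1.33 and -2.19 in the BF BSHlow and BF BSHhigh mice, against 0 and 0 over all genes of those fits. Scaling by library totals alone shifted the median of all genes past the filter from 0 and 0.03 to 0.23 and 0.31 and the higher and lower calls over all genes from 2635 and 1252 to 3041 and 924, and from 2611 and 1174 to 3233 and 832, and it left the direction of each of the 9 tested genes as it was. Beside 17% higher and 8.06% lower of all genes, 3 of 13 pan T cell genes were higher and none lower with BF BSHlow (*Cd28* 2.35, *Cd2* 2.21 and *Thy1* 2.18), with a median of 0.11. With BF BSHhigh, beside 16.8% and 7.56% of all genes, 1 was higher and 4 lower, with a median of -0.9, and *Cd3g* fell by 1.85 and *Cd3e* fell by 1.68 on the log2 scale. *Foxp3* rose with BF BSHlow (adjusted p = 0.0087, edgeR), from 3 counts over the 4 libraries of 2 weeks to 51 over the 4 of 12 weeks. With BF BSHhigh it was at 1.87 and not called (adjusted p = 0.0788, edgeR). *Cd4* averaged 1.23 ± 0.0829 and 1.69 ± 1.29 CPM at 2 weeks and 6.88 ± 4.11 and 6.57 ± 3.39 CPM at 12 weeks (SD, n = 4 each). *Cd8a* exceeded *Cd4* in counts in each of the 8 libraries of 2 weeks (log2 ratios 1.2 to 4.52) and was below it in each of the 15 of 12 weeks (-6.87 to -1.48).

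The companions of the 10 genes went both ways. Of all genes 17% were called higher and 8.06% lower with BF BSHlow, and 16.8% and 7.56% with BF BSHhigh. Of 10 genes that store or release granules, 4 were called higher and 2 lower in each strain, with medians of 0.88 and 0.81. *Ctsw*, a cathepsin of cytotoxic cells, was among those that fell (-1.78 and -2.19). Of 6 secreted and surface effectors tested, 1 was higher and 4 lower with BF BSHlow, and 1 and 3 with BF BSHhigh. Their medians were -1.73 and -1.85. *Tnfsf10* (-1.9 and -2.06) and *Xcl1* (-1.76 and -1.94) fell in both strains. *Fasl* was called lower with BF BSHlow, from 46 to 2 counts over 4 libraries each, and was at -1.76 with BF BSHhigh (adjusted p = 0.0689, edgeR). *Ccl5* (-3.42) and *Gzmk* (-3.92) were called lower with BF BSHhigh. With BF BSHlow *Gzmk* was at -3.25 and not called. The mean of *Ccl5* fell in that strain too, from 8.91 to 2.78 CPM, and its fitted value is not reported here. *Tnf* rose in both strains (2.28 and 2.65). The gamma constant genes *Tcrg-C2* (-1.82 and -3.97) and *Tcrg-C4* (-1.65 and -2.73) fell in both strains, and *Trdc* was not called (-0.93 and -1.24, adjusted p = 0.169 and 0.0651, edgeR). *Ccl25*, the chemokine that draws Ccr9-bearing cells to the gut epithelium, fell (-1.73 and -2.25) and *S1pr1* (2.39 and 2.11), which lets lymphocytes leave tissue, and *Klf2* (1.67 and 2), which drives it, rose. *H2-T3*, which encodes the thymus leukemia antigen, a class I molecule of gut epithelium that binds CD8 alpha pairs, had 1492 to 3542 counts in each library of 2 weeks and 0 to 38 in each library of 12-week non-tumor colon. *Il15* was called lower with BF BSHhigh (-1.59, adjusted p = 0.000599, edgeR) and was at -0.74 with BF BSHlow (adjusted p = 0.0503, edgeR). *Itgb7* was called higher with BF BSHlow (1.27, adjusted p = 0.0448, edgeR). Of the 9 partners and ligands, 1 was higher and 1 lower with BF BSHlow, and none higher and 4 lower with BF BSHhigh.

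Time on diet, age, the position of the tissue piece and any batch of libraries cannot be told apart between the 2-week and 12-week samples. The values of the marker lists moved with the fall of the 10 genes. Smooth muscle markers summed to at most 206 CPM in the 8 libraries of 2 weeks and to at least 1510 CPM in the 8 of 12 weeks, markers of mature colonocytes to at least 11300 and at most 4360 CPM, macrophage markers to at most 46.4 and at least 60 CPM, and the 4 butyrophilin-like genes to at least 444 and at most 196 CPM. Their part in the result was not tested.

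The 10 genes did not vary as 1 block over the 23 libraries. Pearson's r between their log2 CPM, given as a description over libraries that share their group differences, was highest for *Cd8a* with *Cd7* and for *Cd160* with *Cd7* (0.95 each) and lowest for *Gzmb* with *Cd160* (0.38), while *Gzma* and *Gzmb* were at 0.89. Of 14391 other genes with a mean of at least 1 CPM, those whose log2 CPM was most like the mean of the standardised values of the 10 genes were *Ccl5* (r = 0.958), *Tcrg-C4* (0.934), *B2m* (0.928), *Trim21* (0.918), *H2-K1* (0.911), *Irf7* (0.91), *Tapbp* (0.909), *Uba7* (0.909), *Trafd1* (0.906) and *Ddx60* (0.903). *Ccl5* had group means of 8.91 and 24.6 CPM at 2 weeks, 2.78 and 2.25 CPM in non-tumor colon and 0.709 and 2.85 CPM in tumors, BF BSHlow first.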

How the data were processed

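RNA of mouse colon was measured in 23 libraries of 6 groups. Reads were trimmed with Cutadapt, aligned to mm10 with STAR and quantified with RSEM by the authors, who deposited expected counts per gene, not normalized. The versions are not given in the sources used here. Of the values, 4.24% are not whole. The study's methods name an mRNA kit, the labels a total RNA kit. One row with a text cell was left out. Groups follow the labels. The columns of BF BSHhigh tumors were identified as a group through a supplementary table of the study. After rounding, edgeR 4.0.16 (R 4.3.3, TMM, filterByExpr, quasi-likelihood) was run on them, in fits of the 2 groups compared (strains) or of 4 groups (tissues, times), with Benjamini-Hochberg adjustment over all genes. A call needed adjusted p below 0.05 together with a change over 2-fold. The levels are CPM with TMM factors over all libraries. Ratios were tested by exact permutation (Python 3.11.15, NumPy 2.4.6), and counting intervals are exact binomial ones (SciPy 1.17.1). Alternatives were DESeq2 1.42.0, limma-voom (limma 3.58.1), other scalings and filters, 1 fit of all libraries, blocking by replicate number, and omission of single libraries. Scripts were first tested on simulated data. Same-numbered libraries did not pair (correlations -0.173 to 0.26). The genes and lists were chosen with earlier results of these data known, and the genes named are the 10, fixed partners, up to 4 called genes a list with the largest changes, and the 10 most alike in pattern. *H2-T3* and *Zap70* were given their levels after their values were seen. Some genes of the lists are not reported here by name.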

Additional observations from a re-analysis of the deposited data

Results flagged for a closer look

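Over 50 combinations of gene and group with 4 libraries, 2 had a library far from the other 3, by the gap of the extreme library to its neighbour over the range of the group, for which chance flags about 1 in 20 groups. *Nkg7* in replicate 3 of BF BSHhigh normal colon at 2 weeks was at 3.19 CPM, with the nearest library at 5.63 CPM (gap over range 0.873). *Klrd1* in replicate 4 of BF BSHlow non-tumor colon at 12 weeks was at 0.387 CPM, with the nearest at 1.5 CPM (gap over range 0.879).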

How the results depend on the processing

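Of the 16 counts of called genes, 12 stayed within 1.5 times their value under each alternative. In tumors, the count of genes higher with BF BSHhigh went from 0 to 1 with DESeq2, the likelihood-ratio test and 1 fit of all libraries. The count higher in BF BSHlow tumors than in non-tumor colon went from 1 to 2 with DESeq2, the likelihood-ratio test and library totals alone, to 0 with limma-voom, to 0 with the replicate block and to 0 in a fit of these 2 groups with no block, an alternative chosen after seeing the data (in both *Gzmb* fell under the filter), and was 1 to 2 without single libraries. In BF BSHhigh mice the count lower went from 1 to 2 with DESeq2 and 1 fit of all libraries, and the count higher was 1 to 2 without single libraries. The replicate block moved no other count by over 1.5 times. Called genes under the filter in its fits were *Gzmb* and *Nkg7* in BF BSHlow tumors and *Gzmb* from 2 to 12 weeks with BF BSHlow, and the block ended the call of *Itgae* from 2 to 12 weeks with BF BSHhigh (-1.15, adjusted p = 0.0765, edgeR). Same-numbered libraries share a number only, and BF BSHhigh tumors carry none, so no block could be fitted for them. Signs changed for uncalled values alone. *Klrd1* in BF BSHhigh tumors against non-tumor colon was 0.008 with library totals alone and -0.798 to 0.004 without single libraries, *Cd8b1* -1.87 to 0.2 and *Nkg7* -1.02 to 0.041. *Nkg7* between strains in non-tumor colon was -0.308 to 0.303, *Cd8b1* from 2 to 12 weeks with BF BSHlow -1.25 to 0.24, and the interaction of *Gzma* -0.21 to 0.62. Among ratios, that of *Cd8b1* to *Cd8a* in BF BSHhigh tumors against non-tumor colon was -0.074 to 0.648, and between strains in tumors those to the *Cd3* genes were -0.67 to 0.27 (*Cd8a*) and -0.88 to 0.085 (*Gzmb*). The causes were not tested. Depth limits *Prf1*, *Cd8b1* and the tumor values of *Cd8a* and *Cd160*, which rest on few counts. The same holds for *Nkg7* in BF BSHlow tumors and *Gzmb* in BF BSHlow non-tumor colon.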
